A study of Mus musculus with 12 samples.

Results

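Toll-like receptor genes were taken as the rows of the value table whose symbol is Tlr followed by a number alone. 8 such genes were listed and 7 had a row in the value table used here, Tlr1, Tlr2, Tlr3, Tlr4, Tlr5, Tlr8 and Tlr9. They were among 556 genes with values on a NanoString mouse immunology panel. The other listed gene is not analysed here. RNA came from the terminal ileum of 12 male C57BL/6 mice at week 7, killed at P50, with 3 mice in each of 4 groups. SPF control mice (mice 2, 7 and 8) carried a specific-pathogen-free microbiota and were not treated. SPF PAT mice (mice 21, 26 and 27) were SPF mice that received pulsed antibiotic treatment (PAT), here 1 course of the macrolide tylosin for 5 days from P5, given through the drinking water of the nursing dam. GF control mice (mice 37, 38 and 39) were germ-free and not treated, and GF PAT mice (mice 41, 42 and 43) were germ-free and received the same course. The SPF mice descended from purchased mice and the GF mice from a germ-free colony, so that microbiota and breeding source cannot be told apart. Treatment reached the pups through dams and litters, and neither litter nor cage is given for a mouse, so the spread between mice may hold less than the spread between litters.

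Toll-like receptors are membrane receptors of innate immunity that bind conserved microbial molecules and pass the signal through the adaptors Myd88 and Ticam1 to kinases of the IRAK and IKK families and on to NF-κB and interferon regulatory factors. Tlr1, Tlr2, Tlr4 and Tlr5 bind ligands at the cell surface, namely lipopeptides (Tlr1 paired with Tlr2), lipopolysaccharide (Tlr4) and flagellin (Tlr5). Tlr3, Tlr8 and Tlr9 lie in endosomes and bind nucleic acids. In the gut they are made by epithelial cells, macrophages, dendritic cells and B cells, which meet the dense bacteria of the terminal ileum.

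Of the 7 genes, Tlr1, Tlr2 and Tlr5 differed among the 4 groups (limma F-test, adjusted p = 0.0114, 0.0474 and 0.0161), 3 of 7 beside 33.1% of all 556 genes. Tlr1 and Tlr2 were highest in SPF control ileum and Tlr5 was lowest there. Every level below is the log2 of a probe count normalized to the depth of the mouse, written as mean ± SD over 3 mice, and probes differ in efficiency, so levels are compared between mice and not between genes. In whole tissue, fewer cells of a type and less RNA per cell cannot be told apart.

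The sequences upstream of the 3 genes that differed are shown as a description, and their bearing on the differences was not tested. RefSeq (GRCm38.p6) gave a position for 7 of the 7 genes and upstream sequence for 6 of them, and each line holds the 250 bases before an annotated start, 5′ to 3′ on the gene's strand. Tlr1 lies at chr5:64924680-64933600, and the window shown is chr5:64933559-64933808 (minus strand), the outer of its 2 annotated starts. Tlr2 lies at chr3:83836272-83841824, with the window at chr3:83841609-83841858 (minus strand). Tlr5 lies at chr1:182954752-182976044, with the window at chr1:182954538-182954787 (plus strand). The annotated span of the gene, which includes longer transcripts, covers 42 bases of the Tlr1 window, 216 of the Tlr2 window and 36 of the Tlr5 window. Capitals mark matches, on either strand, to 5 motifs: the NF-κB consensus, the AP-1 motif TGANTCA, the PU.1 motif GAGGAAGT, the GC box GGGCGG and the TATA box TATAAA.
Tlr1: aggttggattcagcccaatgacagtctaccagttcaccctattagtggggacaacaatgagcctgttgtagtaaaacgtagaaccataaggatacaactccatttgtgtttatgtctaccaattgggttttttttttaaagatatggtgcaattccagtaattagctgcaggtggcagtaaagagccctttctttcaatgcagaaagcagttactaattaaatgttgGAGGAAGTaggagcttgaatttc
Tlr2: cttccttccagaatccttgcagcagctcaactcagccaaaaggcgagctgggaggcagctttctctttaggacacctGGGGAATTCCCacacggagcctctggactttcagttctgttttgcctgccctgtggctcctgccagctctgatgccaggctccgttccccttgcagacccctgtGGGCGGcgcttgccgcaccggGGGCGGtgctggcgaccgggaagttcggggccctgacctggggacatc
Tlr5: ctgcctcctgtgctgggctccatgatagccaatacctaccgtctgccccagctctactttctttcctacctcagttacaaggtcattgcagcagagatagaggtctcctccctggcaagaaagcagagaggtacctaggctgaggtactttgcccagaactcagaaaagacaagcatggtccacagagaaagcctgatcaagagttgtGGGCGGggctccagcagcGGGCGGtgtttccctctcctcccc
The Tlr2 window held 2 overlapping NF-κB matches, drawn as 1 run from -173 to -163 relative to the start, and 2 GC boxes. The Tlr5 window held 2 GC boxes and no NF-κB match. The Tlr1 window held 1 PU.1 match, from -23 to -16, and no NF-κB match or GC box. Of the windows not shown, the inner Tlr1 window held none of the 5 motifs. The Tlr3 window held an NF-κB match from -211 to -202, the Tlr8 window TATA matches and the Tlr9 window an AP-1 match. Among 32851 upstream windows of the same length, 7.25% held the NF-κB consensus, 32.7% a GC box, 2.44% the PU.1 letters, 6.75% the AP-1 letters and 12.4% the TATA box. The GC content was 39.2% for Tlr1, 62.8% for Tlr2 and 55.2% for Tlr5, beside a median of 52.4% over all windows. A match describes the letters only, and its absence from the window says nothing about a factor.

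Tlr1, the receptor that joins Tlr2 to bind triacylated bacterial lipopeptides, separated SPF control mice from the other 9. Its level was 8.97, 8.98 and 8.84 in SPF control mice 2, 7 and 8. In SPF PAT mice 21, 26 and 27 it was 8.44, 8.05 and 7.84. In GF control mice 37, 38 and 39 it was 8.20, 7.55 and 7.76, and in GF PAT mice 41, 42 and 43 it was 8.14, 7.89 and 7.58. The lowest SPF control mouse lay above the highest mouse of each other group, while the other 3 groups overlapped. The means fell in the order SPF control (8.93 ± 0.08), SPF PAT (8.11 ± 0.30), GF PAT (7.87 ± 0.28) and GF control (7.84 ± 0.33), and of these neighbours only the first pair differed past the threshold.

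Tlr2, the lipopeptide receptor that pairs with Tlr1, was also highest in SPF control ileum, on far fewer counts (27 to 99 in a mouse). Its level was 6.07, 5.63 and 6.36 in SPF control mice 2, 7 and 8. In SPF PAT mice 21, 26 and 27 it was 4.96, 5.60 and 5.02. In GF control mice 37, 38 and 39 it was 5.07, 5.22 and 5.42, and in GF PAT mice 41, 42 and 43 it was 5.48, 4.80 and 4.91. SPF control mouse 7, at 5.63, and SPF PAT mouse 26, at 5.60, were nearly level, so that the groups met without overlapping. The means were 6.02 ± 0.37 in SPF control, 5.24 ± 0.18 in GF control, 5.19 ± 0.35 in SPF PAT and 5.06 ± 0.37 in GF PAT, and the last 3 did not differ beyond the spread between mice.

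Tlr5, the flagellin receptor, ran the other way and was lowest in SPF control ileum, with 28 to 56 counts in a mouse. Its level was 4.55, 5.07 and 4.69 in SPF control mice 2, 7 and 8. In SPF PAT mice 21, 26 and 27 it was 5.30, 5.79 and 5.35. In GF control mice 37, 38 and 39 it was 5.61, 5.66 and 5.80, and in GF PAT mice 41, 42 and 43 it was 5.22, 5.48 and 5.56. The highest SPF control mouse lay below the lowest mouse of each other group. The order of the means was GF control (5.69 ± 0.10), SPF PAT (5.48 ± 0.27), GF PAT (5.42 ± 0.18) and SPF control (4.77 ± 0.27), the first 3 not differing from each other past the threshold. Counting error alone is 18.9% at the lowest count of Tlr5 and 19.2% at that of Tlr2, against 8.01% for Tlr1.

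Tlr4, the lipopolysaccharide receptor, varied little, between 6.68 and 7.39 over all 12 mice. It ranged from 7.13 to 7.39 in SPF control, 6.78 to 7.21 in SPF PAT, 6.80 to 7.23 in GF control and 6.68 to 6.86 in GF PAT mice. Its groups overlapped except for GF PAT, where all 3 mice lay below the 3 SPF control mice. Tlr4 did not differ among the groups by the F-test (adjusted p = 0.121).

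Among the endosomal receptors, Tlr3, which binds double-stranded RNA, was lowest in SPF control mice and highest in SPF PAT mice. Its level was 7.82, 7.86 and 8.23 in SPF control mice 2, 7 and 8 and 8.27, 8.63 and 8.40 in SPF PAT mice 21, 26 and 27. GF control mice ranged from 8.10 to 8.36, and the highest GF PAT mouse was at 8.28. The 2 SPF groups met without overlapping and both GF groups lay between them, overlapping each. Tlr3 did not pass the F-test (adjusted p = 0.153).

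Tlr8, an endosomal receptor for RNA, overlapped in every pair of groups. It ranged from 5.77 to 6.65 in SPF control, 5.79 to 6.28 in SPF PAT, 5.55 to 6.13 in GF control and 5.68 to 5.90 in GF PAT mice (F-test, adjusted p = 0.508).

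Tlr9, the receptor for unmethylated CpG DNA, had the widest spread within groups (pooled SD 0.658 log2, beside a median of 0.301 over all genes). Its level was 7.45, 7.72 and 6.13 in SPF control mice 2, 7 and 8, and 7.24, 5.97 and 5.76 in SPF PAT mice 21, 26 and 27. In GF control mice 37, 38 and 39 it was 6.82, 6.08 and 6.10, and in GF PAT mice 41, 42 and 43 it was 7.48, 6.89 and 6.64. High and low mice stood in the same group, and every pair of groups overlapped. The F-test gave an adjusted p of 0.411.

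**Figure D1:**
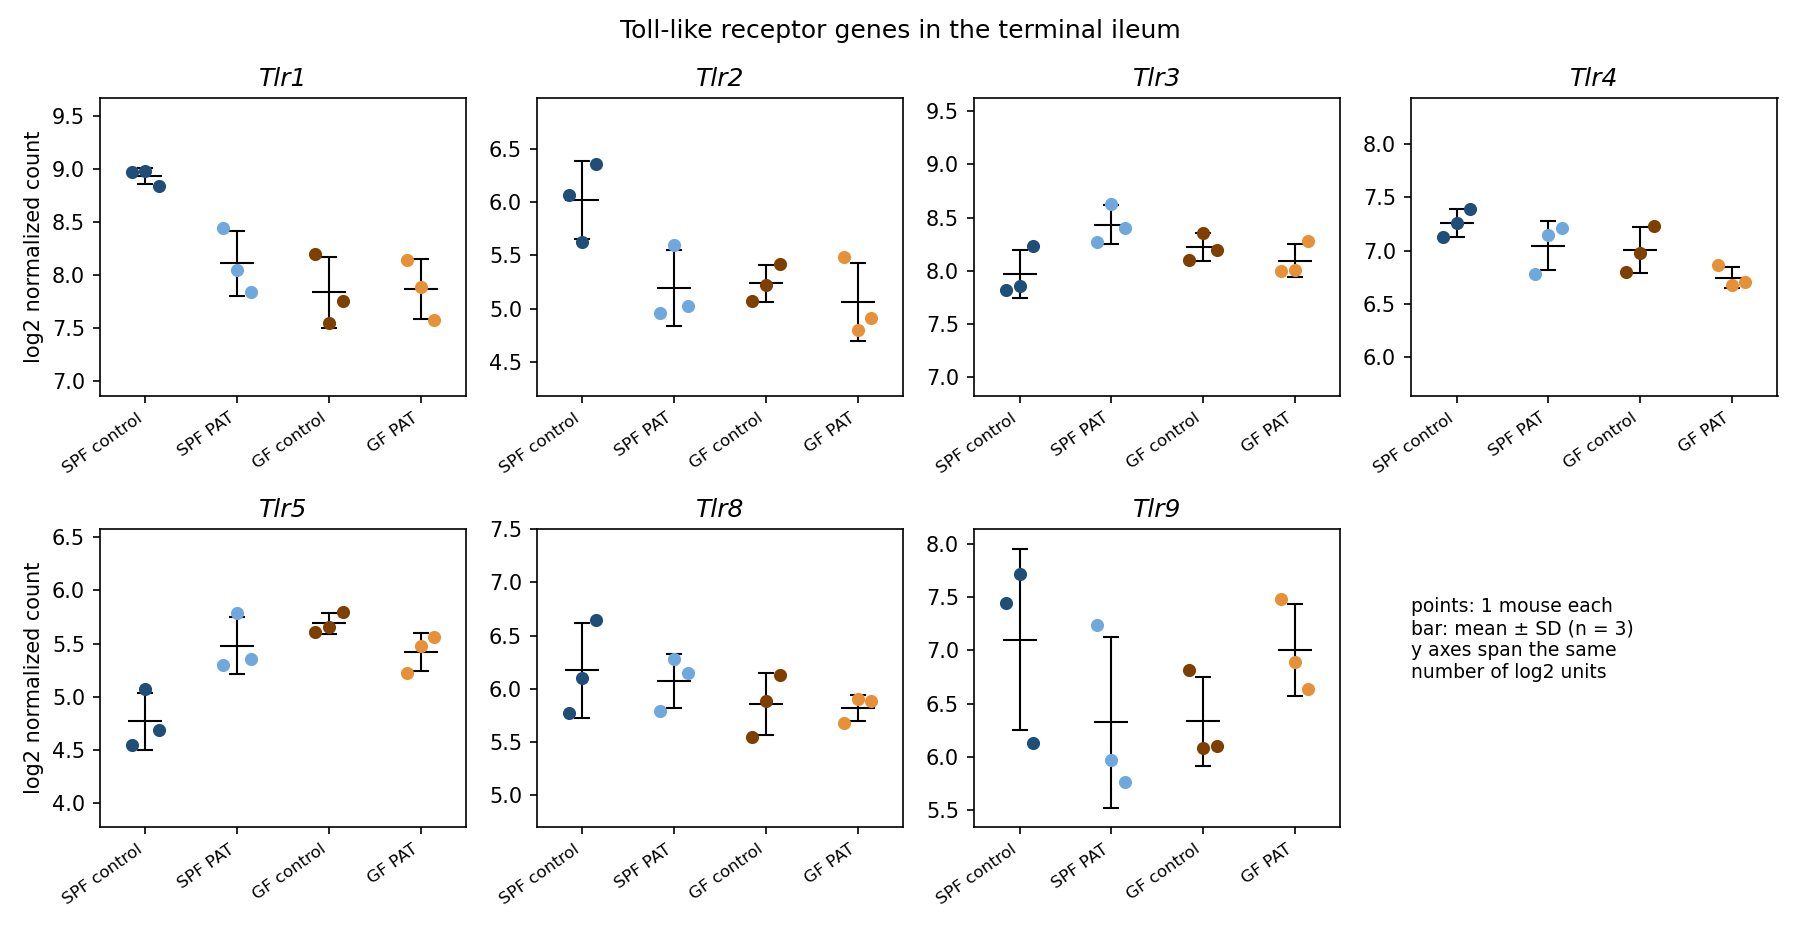
Log2 normalized count (vertical axis, the same number of log2 units in each panel) of the 7 Toll-like receptor genes in the 4 groups; points are single mice and bars the mean ± SD of 3. SPF control mice sit apart from all other mice in Tlr1 (8.84 to 8.98) and Tlr5 (4.55 to 5.07), and Tlr9 spreads widely within groups.

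The first comparison asked how the presence of a microbiota goes with receptor expression in untreated mice. Tlr1 was 2.13-fold higher in SPF control than in GF control ileum (log2 difference 1.09, SE 0.21, adjusted p = 0.00355) and Tlr2 was 1.72-fold higher (0.78, SE 0.26, adjusted p = 0.0322). Tlr5 was 1.89-fold lower (log2 difference -0.92, SE 0.18, adjusted p = 0.00345). These 3 genes were also those whose groups did not overlap. 2 of 7 genes were higher beside 19.4% of all genes, 1 of 7 was lower beside 22.7%, and 3 of 7 did not overlap beside 52.2% of all genes, shares read as near those of the panel. The differences of the other 4 genes did not pass the threshold: 0.25 for Tlr4 (95% interval -0.09 to 0.60), -0.25 for Tlr3 (-0.60 to 0.10), 0.32 for Tlr8 (-0.21 to 0.86) and 0.76 for Tlr9 (-0.34 to 1.87). The median difference over the 7 genes was 0.32, against 0.08 over all genes. Centring each mouse on its median gene moved the median difference of all genes to -0.36 and the split of higher and lower calls from 108 and 126 to 57 and 169. Under it Tlr1 (0.65) and Tlr5 (-1.36) stayed past the threshold, and Tlr2 was 0.34 higher with adjusted p = 0.412, that call also being lost without mouse 2, 8, 37 or 38 (adjusted p up to 0.0923) and with the analysis of variance and Tukey test of the methods (0.18). With quantile normalization Tlr2 was 0.16 higher (adjusted p = 0.764) and Tlr3 passed at -0.62 (adjusted p = 0.0385), so that the 3 calls were then Tlr1 (0.90), Tlr3 and Tlr5 (-1.54).

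The second comparison asked what an early tylosin course left behind in colonized mice some weeks later. Tlr1 was 1.76-fold lower in SPF PAT than in SPF control ileum (log2 difference -0.82, SE 0.21, adjusted p = 0.0217) and Tlr2 was 1.78-fold lower (-0.83, SE 0.26, adjusted p = 0.0402). Tlr5 was 1.64-fold higher (log2 difference 0.71, SE 0.18, adjusted p = 0.019). Tlr3 was 0.46 higher (SE 0.16, 95% interval 0.11 to 0.81) with no overlap between the groups, and missed the threshold (adjusted p = 0.0527). 1 of 7 genes rose beside 14% of all genes, 2 of 7 fell beside 12.2%, and 4 of 7 did not overlap beside 41%. The split of higher and lower calls over all genes, 78 and 68, became 76 and 30 with median centring. It was 90 and 49 with quantile normalization and 135 and 57 with total count scaling. For Tlr4 the difference was -0.22 (-0.57 to 0.13), for Tlr8 -0.10 (-0.63 to 0.43) and for Tlr9 -0.78 (-1.88 to 0.33), none past the threshold. This comparison and the first share the 3 SPF control mice, so that opposite signs in both are not independent. The 3 calls rest on few mice. The Tlr1 call was lost without mouse 2, 7, 26 or 27 (adjusted p up to 0.0902), the Tlr2 call without any 1 of mice 2, 8, 21, 27, 38, 39, 42 and 43 (up to 0.136) and the Tlr5 call without mouse 2 or 26 (up to 0.0769), so that without mouse 2 none of the 7 genes passed. None did with the Tukey test of the methods, where the adjusted p was 0.128 for Tlr1, 0.208 for Tlr2 and 0.0959 for Tlr5. Tlr2 was -0.48 with median centring (adjusted p = 0.285) and -0.40 with quantile normalization (0.456), Tlr1 was -0.46 with median centring (0.0733), Tlr5 was 1.07 and 1.14 under these scalings and passed, and with only the groups compared in the fit Tlr2 (0.102) and Tlr5 (0.0823) did not pass. Tlr3 was past the threshold with counts scaled to the total of each mouse (0.50, adjusted p = 0.00484), with genes under a mean count of 20 left out (adjusted p = 0.0392), with an intensity trend in limma (0.0417), with quantile normalization (0.0323) and with voom on the recovered counts (0.0403). Tlr3 also passed without mouse 8 or 21 (smallest adjusted p 0.0232).

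In germ-free mice the same course was followed by no difference past the threshold in any of the 7 genes, beside 0% of all 556 genes. Over all genes 28 had an unadjusted p under 0.05, none of them a Toll-like receptor gene, and voom called 1 gene and the Tukey test 0. Differences of GF PAT from GF control were 0.03 for Tlr1 (95% interval -0.45 to 0.52), -0.17 for Tlr2 (-0.75 to 0.40), -0.12 for Tlr3 (-0.47 to 0.23) and -0.26 for Tlr4 (-0.61 to 0.09). For Tlr5 the difference was -0.27 (-0.67 to 0.13), for Tlr8 -0.03 (-0.56 to 0.50) and for Tlr9 0.67 (-0.44 to 1.78). The interval was widest for Tlr9, whose mice varied most. Tlr5 was the 1 gene of the 7 whose GF groups did not overlap, every GF PAT mouse lying below every GF control mouse, beside 12.1% of all genes.

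The last comparison set the PAT effect in SPF mice against that in GF mice. Tlr5 passed: its change after PAT was 0.98 higher in SPF than in GF mice (SE 0.26, 95% interval 0.41 to 1.55, adjusted p = 0.0307), as it was higher after PAT in SPF mice and lower, not past the threshold, in GF mice. 1 of 7 genes was positive beside 9.89% of all genes and 0 of 7 negative beside 7.19%. For Tlr1 the difference of the effects was -0.85 (SE 0.30, adjusted p = 0.0732), for Tlr2 -0.66 (SE 0.36, adjusted p = 0.189) and for Tlr3 0.58 (SE 0.22, adjusted p = 0.087). Tlr4 (0.04), Tlr8 (-0.07) and Tlr9 (-1.44, SE 0.70, adjusted p = 0.148) did not pass. The Tlr5 call was lost without any 1 of mice 2, 26, 27, 38, 39, 41 and 42 (adjusted p up to 0.0799) and with voom (0.92, adjusted p = 0.0556), while the value was 1.53 with median centring and 1.73 with quantile normalization. Tlr3 passed with total count scaling (0.50, adjusted p = 0.0341). SPF PAT mice did not differ past the threshold from either GF group in any of the 7 genes, with a smallest adjusted p of 0.504 against GF PAT and 0.659 against GF control, where 1.44% and 2.16% of all genes passed.

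**Figure D2:**
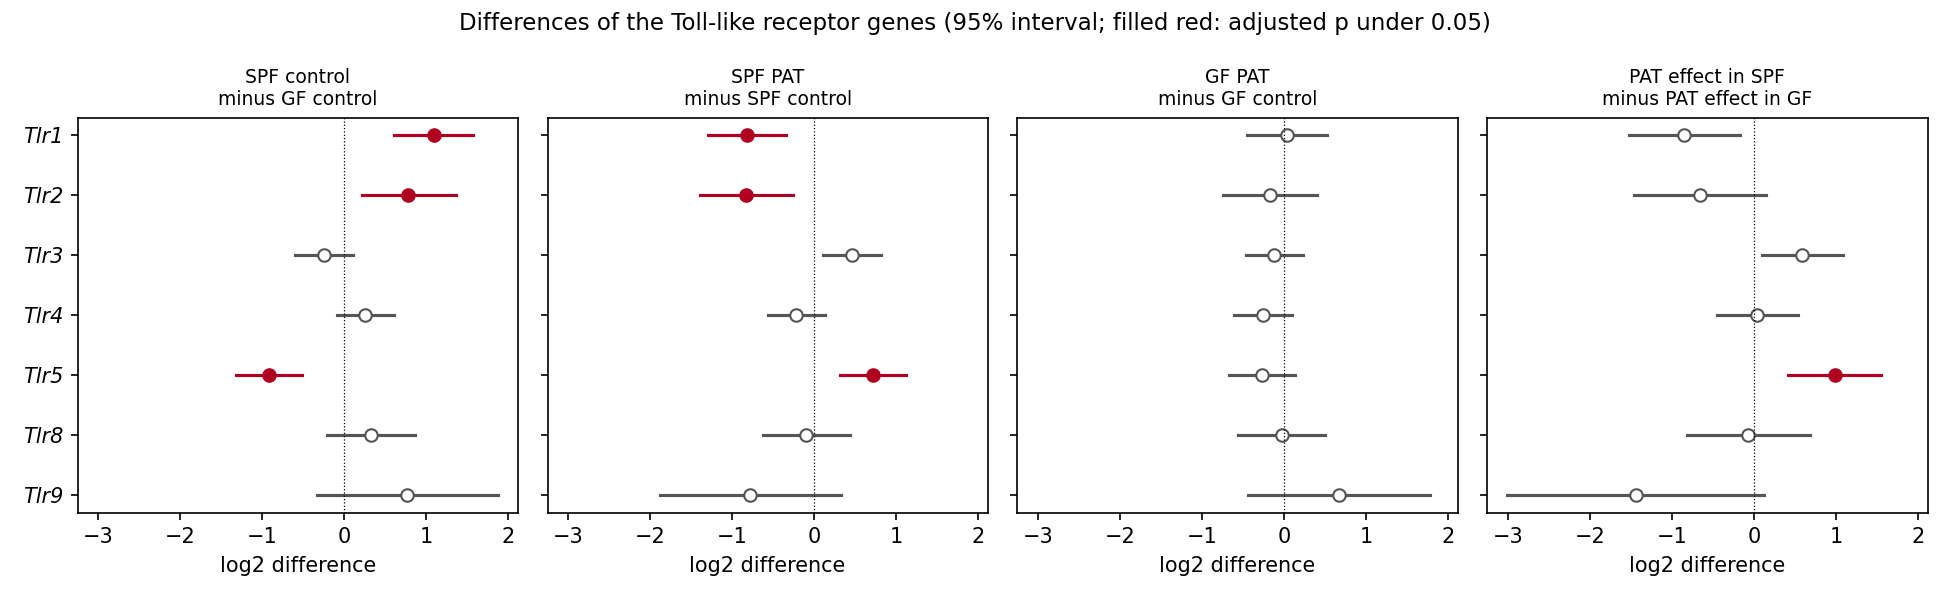
Log2 difference (horizontal axis) of each Toll-like receptor gene with its 95% interval in 4 comparisons of 3 mice a group; filled red points passed an adjusted p of 0.05. Tlr1 and Tlr2 lie right of 0 in the first panel and left of it in the second, Tlr5 the reverse, and no gene passed between the GF groups.

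Marker genes of other cell types moved with some of these results. Of 10 T cell markers, 7 were higher in SPF control than in GF control ileum and 6 fell in SPF PAT ileum, beside 19.4% of all genes higher and 12.2% lower in these comparisons; their summed log2 level ranged from 10.46 to 11.18 in SPF control, 8.84 to 10.46 in SPF PAT, 8.72 to 9.99 in GF control and 9.26 to 10.25 in GF PAT mice. Of 6 neutrophil markers, 3 were higher in SPF control than in GF control and 2 fell in SPF PAT, beside the same shares of all genes, with ranges of 6.25 to 7.15 in SPF control, 5.26 to 5.94 in SPF PAT, 4.83 to 5.69 in GF control and 5.42 to 6.19 in GF PAT mice; at most 1 of the 6 was at a count of 0 in a mouse. Of 7 macrophage and monocyte markers, Itgam and Ccr2 were higher and Cd163 lower in SPF control than in GF control ileum, and Itgam fell in SPF PAT, so that 2 of 7 were higher beside 19.4% of all genes, 1 lower beside 22.7% and 1 fell beside 12.2%. Their summed level ranged from 10.67 to 11.25 in SPF control and from 10.33 to 10.96 over the other groups. The 6 intestinal epithelial markers, which check the tissue, were abundant in every mouse, from 16.82 to 17.62, with none at 0. Of these, Ccl25, Mme and Dpp4 were lower in SPF control than in GF control ileum and rose in SPF PAT. Pigr was higher in SPF control and Nox1 fell in SPF PAT. Between the controls 3 of 6 were thus lower beside 22.7% of all genes and 1 of 6 was higher beside 19.4%. In SPF PAT 3 of 6 rose beside 14% and 1 of 6 fell beside 12.2%. Of the 5 NK and innate lymphocyte markers reported here, Klrd1 was higher in SPF control than in GF control and fell in SPF PAT. Thus 1 of 5 was higher beside 19.4% of all genes and 1 of 5 fell beside 12.2%. The summed level of the 5 ranged from 8.76 to 8.92 in SPF control and 8.33 to 8.87 in SPF PAT mice. It ranged from 8.19 to 8.45 in GF control and 8.27 to 8.42 in GF PAT mice. Of 6 endothelial and stromal markers, Cdh5 and Pdgfrb were lower in SPF control than in GF control and Pdgfrb rose in SPF PAT. Thus 2 of 6 were lower beside 22.7% of all genes and 1 of 6 rose beside 14%. The summed level of the 6 ranged from 11.56 to 11.84 in SPF control and 11.72 to 12.28 in SPF PAT mice. It ranged from 11.83 to 12.23 in GF control and 11.79 to 12.16 in GF PAT mice. None of 5 dendritic cell markers passed in either comparison, and their summed level lay between 10.30 and 10.67 in every mouse. The part of these shifts in the Tlr1, Tlr2 and Tlr5 differences was not tested.

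B cell markers varied widely between mice of the same group, and Tlr9 went with them. None of the 7 markers reported here (Ms4a1, Cd79a, Cd79b, Cd22, Pax5, Cr2 and Btk) passed in the comparison of the controls, the SPF groups or the GF groups, and none was at 0. Their median log2 difference was 1.70 for SPF control minus GF control, -1.59 for SPF PAT minus SPF control and 2.08 for GF PAT minus GF control. Their summed log2 level ranged from 8.86 to 12.26 in SPF control, 7.73 to 12.13 in SPF PAT, 7.60 to 11.33 in GF control and 10.20 to 12.07 in GF PAT mice. Mice 8, 26, 27, 38 and 39 had the lowest levels (7.60 to 8.86), and these 5 mice were also the 5 with the lowest Tlr9 (5.76 to 6.13). In a fit with the group means and the mean log2 of the 7 markers as covariate, an alternative chosen after the values were seen, Tlr9 changed by 0.35 log2 for each log2 unit of the marker mean (SE 0.04, adjusted p = 0.000148). Tlr1 had a slope of 0.12 (SE 0.03, adjusted p = 0.0213), Tlr8 of -0.14 (SE 0.03, adjusted p = 0.00813) and Tlr4 of -0.08 (SE 0.02, adjusted p = 0.033). 4 of 7 genes thus had a slope past the threshold, beside 40.8% of all genes, which include the markers themselves.

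With the B cell level in the fit the Tlr9 difference between SPF control and GF control was 0.21 (adjusted p = 0.362) and that between SPF PAT and SPF control was -0.13 (adjusted p = 0.63). Tlr1, Tlr2 and Tlr5 stayed past the threshold in both comparisons, at 0.90, 0.91 and -0.86 in the first and -0.59, -0.98 and 0.64 in the second. Tlr4 and Tlr8 then passed in the first, at 0.38 (adjusted p = 0.0197) and 0.56 (adjusted p = 0.0109), and Tlr4 in the second, at -0.37 (adjusted p = 0.0451). 5 of 7 genes thus passed in the first beside 48.2% of all genes, and 4 of 7 in the second beside 26.3%. The difference between the PAT effects for Tlr5 was 0.85 and no longer past the threshold (adjusted p = 0.0936).

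**Figure D3:**
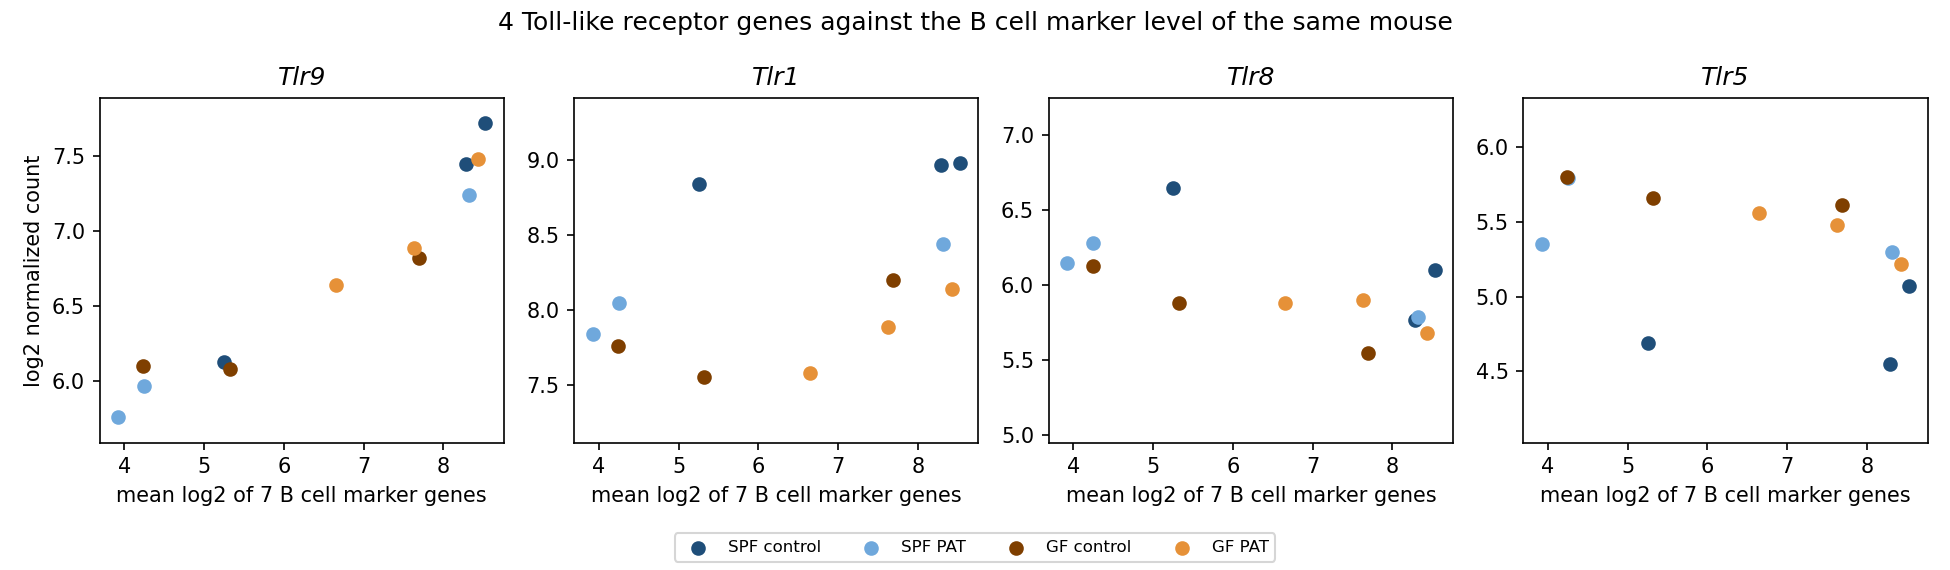
Log2 normalized count of Tlr9, Tlr1, Tlr8 and Tlr5 (vertical axes) against the mean log2 level of 7 B cell markers in the same mouse (horizontal axes); points are single mice, coloured by group. Tlr9 rises with the marker level across groups (slope 0.35), and Tlr1 has a slope of 0.12. SPF control mice have the highest Tlr1 (8.84 to 8.98). Mouse 8, the only SPF control mouse at a low marker level (5.25), is at 8.84.

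The genes whose pattern over the 12 mice was most like that of each receptor past the F-test were found among 444 other genes with a mean normalized count of at least 20, by the root mean square difference after each gene was centred and scaled, so that 0 is an identical pattern. For Tlr1 they were Runx3 (0.202), a transcription factor of T and innate lymphocytes, H2-Ab1 (0.237), a chain of MHC class II, and Cd74 (0.242), the invariant chain that escorts it. Cd74 averaged 15.63 in SPF control, 13.83 in SPF PAT, 13.42 in GF control and 13.85 in GF PAT mice. For Tlr2 they were Bst2 (0.385), the interferon-induced tetherin, Cxcl9 (0.501), a chemokine induced by interferon gamma, and Saa1_2 (0.505), a probe for serum amyloid A, which averaged 14.29 in SPF control and 7.91 in GF control mice. For Tlr5 they were Il1rl2 (0.339), the receptor of IL-36, Traf4 (0.394), an adaptor of the TRAF family, and Tyk2 (0.396), a Janus kinase. Among the receptors past the F-test, likeness was thus closest for Tlr1 and looser for Tlr2 and Tlr5. Of the receptors not past it, Tlr9 had a still closer best match (0.179). The best matches of Tlr3 (0.365), Tlr4 (0.503) and Tlr8 (0.483) were looser than that of Tlr1. The relation of likeness to count was not tested.

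Downstream of the receptors, 1 of 2 adaptors and 10 of 11 kinases and ubiquitin ligases were lower in SPF control than GF control ileum. So were 22.7% of all genes. With the Tukey test of the methods and Benjamini-Yekutieli adjustment, which the methods do not name, these were 0 and 2. The 126 lower calls over all genes became 26 under that setting, and 86 with Benjamini-Hochberg adjustment of the same test. Myd88, the adaptor shared by all the receptors but Tlr3, was lower in SPF control than in GF control ileum. Its log2 difference was -0.52 (SE 0.13, adjusted p = 0.0107). It ranged from 8.53 to 8.74 in SPF control and from 9.03 to 9.35 in GF control mice. After PAT in SPF mice Myd88 differed by 0.30 (adjusted p = 0.115), or by 0.33 with total count scaling (adjusted p = 0.0153). In GF mice it differed by -0.31 after PAT (adjusted p = 0.693). Neither change passed in the main fit, while the PAT effect on Myd88 was 0.61 higher in SPF than in GF mice (adjusted p = 0.0498). That last call was not rerun under other settings or with mice left out. The other adaptor measured, Tirap, did not pass in either of the first 2 comparisons.

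Among the 11 kinases and ubiquitin ligases between adaptor and transcription factor, 0 were higher between the controls (median difference -0.50, against 0.08 over all genes, of which 22.7% were lower). Irak2, a kinase recruited to Myd88, was lower by 0.70 (log2 difference -0.70, SE 0.12, adjusted p = 0.00203). Chuk, the IKK alpha subunit that acts on NF-κB, differed by -0.84 (adjusted p = 0.00363), and Ikbkg, the regulatory IKK subunit NEMO, by -0.64 (adjusted p = 0.00364). Traf6, Irak4, Tbk1 and Ikbkb were among the 10, and Irak1 did not pass. After PAT in SPF mice 4 of the 11 rose (Traf3, Ikbkb, Ikbkg and Mapk14) and 0 fell, beside 14% higher and 12.2% lower of all genes, with a median of 0.36 against -0.02 over all genes. Ikbkg was higher by 0.49 (adjusted p = 0.0225), a call lost without mouse 2, 7, 26 or 27 (adjusted p up to 0.0815), with the Tukey test (0.0697) and with only the groups compared (0.0651). Irak2 (0.34) and Chuk (0.47) did not pass after PAT, but did so under 4 settings: the intensity trend, the filter, total count scaling and voom. Both also passed without mouse 8 or 21 (smallest adjusted p 0.0456 for Irak2 and 0.035 for Chuk). The number that rose was 0 with only the groups compared in the fit and 10 with total count scaling. It ranged from 0 to 9 when single mice were left out: without mouse 2, 7, 8, 21, 26 or 27 it moved by more than 1.5 times. Over all genes the 78 higher calls became 31 with only the groups compared and 135 with total count scaling. They ranged from 31 to 117 with single mice left out.

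Of 8 transcription factors measured, Nfkb1, Rela, Relb and Irf3 were lower in SPF control than in GF control ileum, Nfkbiz was higher and 3 did not pass (median difference -0.50), beside 22.7% lower and 19.4% higher of all genes. Relb, a subunit of the noncanonical NF-κB pathway, ranged from 10.96 to 11.36 in SPF control, 11.86 to 12.13 in SPF PAT, 11.79 to 12.07 in GF control and 11.64 to 11.89 in GF PAT mice. Its difference was -0.74 between the controls (adjusted p = 0.00289) and 0.81 after PAT in SPF mice (adjusted p = 0.00456), and the SPF control mice lay below all others. Nfkb1 differed by -0.61 (adjusted p = 0.0017) and 0.41 (adjusted p = 0.019). Nfkbiz, the inducible nuclear cofactor IκB zeta, had 1.03 (adjusted p = 0.000932) and -0.83 (adjusted p = 0.00545), and ranged from 11.14 to 11.43 in SPF control mice, above every other mouse. In SPF PAT ileum Nfkb1, Rela and Relb rose, Nfkbiz fell and 4 of the 8 did not pass, beside 14% higher and 12.2% lower of all genes. The Nfkb1 call was lost without mouse 2, 7 or 27 (adjusted p up to 0.0768) and with only the groups compared (0.068), and leaving out any 1 of these 3 mice left 1 factor that rose. The number that rose was also 1 with only the groups compared, 6 with median centring and 5 with quantile normalization, total count scaling, an intensity trend, the filter on low counts or voom. The 78 higher calls over all genes became 31 with only the groups compared, 76 with median centring and 90 with quantile normalization. They were 135 with total count scaling, 100 with the trend, 98 with the filter and 105 with voom. Without mouse 2, 7 or 27 they were 31, 33 and 36. With median centring both Nfkbiz calls were lost, at 0.59 between the controls (adjusted p = 0.118) and -0.47 after PAT (adjusted p = 0.23).

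Inhibitors of the pathway were divided in the same 2 directions. Sigirr, a membrane receptor that restrains Toll-like and IL-1 receptor signalling in the gut epithelium, was lower in SPF control ileum (log2 difference -0.98, SE 0.14, adjusted p = 0.000737) and higher after PAT (0.74, SE 0.14, adjusted p = 0.00545). It ranged from 8.38 to 8.76 in SPF control, 9.19 to 9.40 in SPF PAT, 9.40 to 9.68 in GF control and 9.12 to 9.41 in GF PAT mice, so that SPF control mice stood apart from the rest. Tollip, which binds the receptors and IRAK kinases, differed by -0.82 (adjusted p = 0.00778) and by 0.60 after PAT (adjusted p = 0.0447), the second call being lost without any 1 of 9 mice (2, 7, 26, 27, 37, 39, 41, 42 and 43; adjusted p up to 0.162), with the Tukey test (0.208), with only the groups compared (0.117), with median centring (0.0547, the difference being larger at 0.96) and with the B cell covariate (0.0738). Socs1, an interferon-induced inhibitor of cytokine signalling, was higher in SPF control ileum (1.03, SE 0.20, adjusted p = 0.00326) and fell after PAT by 1.08 (adjusted p = 0.00545); with median centring these were 0.59 (adjusted p = 0.108) and -0.72 (0.0722). The other 3 of the 6, Irak3, Tnfaip3 and Nfkbia, did not pass in either comparison. Between the controls 1 of 6 was thus higher and 2 lower, beside 19.4% and 22.7% of all genes, and after PAT 2 of 6 rose and 1 fell, beside 14% and 12.2%.

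Of 20 measured products that these receptors can induce, 7 were higher in SPF control than in GF control ileum (Il1b, Ccl2, Ccl4, Ccl5, Cxcl10, Cd80 and Nos2), 0 were lower and 13 did not pass, beside 19.4% higher and 22.7% lower of all genes. The median difference was 0.70, against 0.08 over all genes. Ccl5, a chemokine for T cells and macrophages, was higher by 2.87 log2 (SE 0.29, adjusted p = 0.000156) and fell after PAT by 1.97 (SE 0.29, adjusted p = 0.00242). It ranged from 10.89 to 11.19 in SPF control, 8.55 to 9.50 in SPF PAT, 7.90 to 8.56 in GF control and 7.77 to 8.64 in GF PAT mice. Nos2, the inducible nitric oxide synthase, was higher by 2.85 (adjusted p = 0.000277) and fell by 1.75 (adjusted p = 0.00545), and Cxcl10, an interferon-induced chemokine, was higher by 1.27 (adjusted p = 0.000433) and fell by 1.20 (adjusted p = 0.00179). These were the 3 of the 20 that fell after PAT, beside 12.2% of all genes, and the other 17 did not pass. Without mouse 21 the number that fell was 6, and the 68 lower calls over all genes became 115. With quantile normalization 2 products in place of 7 were higher between the controls. Cxcl10 was then 0.73 higher (adjusted p = 0.0806) and 0.86 lower after PAT (log2 difference -0.86, adjusted p = 0.0595). With median centring 3 products were higher between the controls, and with the Tukey test and Benjamini-Hochberg adjustment 4. The 108 higher calls over all genes became 72, 57 and 56 in the same order. Ccl5 is also made by T cells, whose markers moved in the same comparisons as described above. The part of T cells in the Ccl5 differences was not tested.

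None of the 4 co-receptors measured (Cd14, Ly96, Cd36 and Ly86) passed in either comparison, beside 19.4% higher and 22.7% lower of all genes between the controls and 14% and 12.2% after PAT. Cd14, which hands lipopolysaccharide to Tlr4, differed by -0.08 between the controls (adjusted p = 0.74) and by -0.08 after PAT in SPF mice (adjusted p = 0.741). Ly86, the partner of the receptor homologue Cd180, had the smallest adjusted p of the 4, with 0.72 (0.0694) and -0.45 (0.251), and passed between the controls with the B cell covariate (0.41, adjusted p = 0.029) or without mouse 8, 21 or 37 (smallest adjusted p 0.0325), and after PAT without mouse 21. Among 7 other receptors for microbial molecules, Tmem173, the STING adaptor of DNA sensing, was 0.83 higher in SPF control than in GF control ileum (adjusted p = 0.000932) and fell by 0.75 after PAT (adjusted p = 0.00428), both calls being lost with median centring (0.39 and -0.40) and quantile normalization (0.35 and -0.38). Nod2, a sensor of muramyl dipeptide, was 0.95 higher (adjusted p = 0.0178; lost without mouse 7 or 39, with the Tukey test and with both of these scalings), and Ddx58, the RNA sensor RIG-I, was lower (-0.54, adjusted p = 0.00677). Neither Nod2 (-0.58, adjusted p = 0.13) nor Ddx58 (0.35, adjusted p = 0.0585) passed after PAT, though Ddx58 did with an intensity trend (0.0336), with genes under a mean count of 20 left out (0.0432), with total count scaling (0.0137) and with voom (0.0285). Ddx58 also passed after PAT without mouse 8 (adjusted p = 0.0315).

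**Figure D4:**
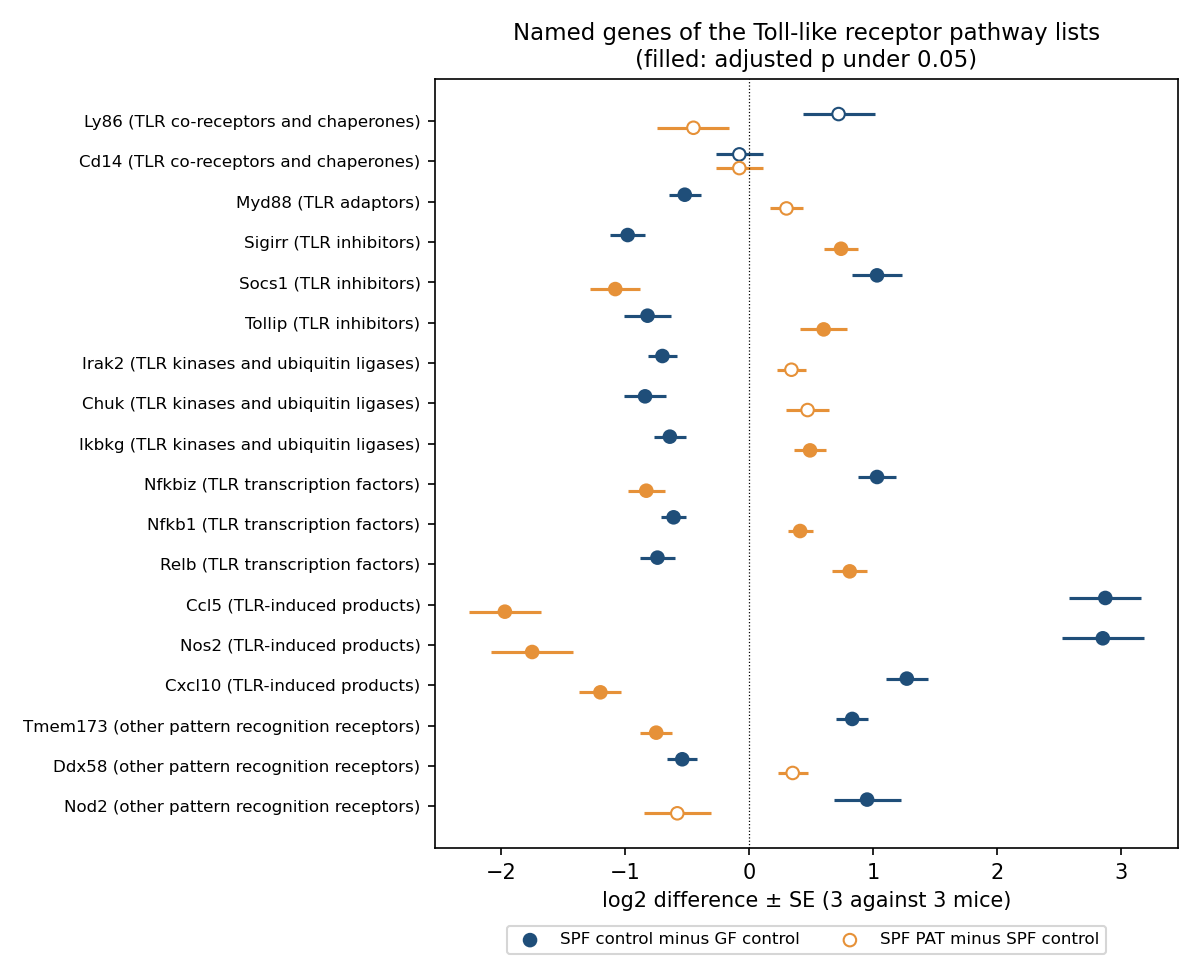
Log2 difference ± SE (horizontal axis) of the named genes of each pathway list in SPF control minus GF control (blue) and SPF PAT minus SPF control (orange), 3 mice a group; filled points passed an adjusted p of 0.05. Both comparisons share the SPF control mice, so the mirrored signs, such as 2.87 and -1.97 for Ccl5, are not independent.

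Libraries were not equal in depth, and every SPF control mouse had a higher total than each of the other 9 mice. Depth and membership of the SPF control group can therefore not be told apart. The recovered total was 806043 to 923395 counts in SPF control mice and 600308 to 681370 in the other 9, and each mouse had 1 to 8 genes with no count. With counts scaled to each mouse's total in place of size factors, the controls differed by 1.08 for Tlr1, 0.78 for Tlr2 and -0.93 for Tlr5, each past the threshold.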

How the data were processed

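NanoString nCounter probes of a mouse immunology panel were hybridised to ileal RNA and counted directly, without sequencing, so the values involve no alignment and no build. The authors normalized these counts with DESeq2 and deposited log2 values for 556 genes in 12 mice; 28 entries for reference genes and control probes hold no value. Whole counts were recovered within 0.01 with 1 size factor per mouse, equal to median-of-ratios factors within a relative difference of 1.96e-09. A deposited 0 stands for a count of 0. Totals per mouse were 600308 to 923395, and the mean normalized count of 111 genes was below 20. Counting errors quoted cover counting only.

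Groups were taken from the sample descriptions. Differences were tested two-sided with limma 3.58.1 (lmFit and eBayes, R 4.3.3). The model held the 4 group means of all 12 mice, without covariates or a filter on low genes, with Benjamini-Hochberg adjustment over 556 genes with a threshold of 0.05. Alternatives were the analysis of variance and Tukey test of the methods (Benjamini-Hochberg and Benjamini-Yekutieli), other variance models and scalings, a filter, limma's voom on the recovered counts with trimmed-mean scaling, each mouse left out, and a B cell covariate added after the data were seen. The methods give a false discovery rate without naming either adjustment. The fits were tested on simulated data, and no value from that test is given or used here. The members, pathway lists and marker lists were chosen with earlier results of these data known. The genes named are all receptor genes with values; from each pathway list, the 3 with the smallest adjusted p among those past the threshold in either of the first 2 comparisons, or the smallest if none passed; Myd88, Cd14, Tollip and Sigirr; and the 3 genes most like each receptor past the F-test. Further genes are named, with no value of their own, as the members of a count, after their values were seen. 1 gene each of the kinase, B cell and NK and innate lymphocyte lists is not reported here and was left out of these lists. Sequences are from RefSeq (GRCm38.p6).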

Additional observations from a re-analysis of the deposited data

Results flagged for a closer look

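The change of Tlr5 after PAT differed between SPF and GF mice: the log2 difference between the 2 effects was 0.98 (SE 0.26, limma adjusted p = 0.0307). Tlr5 was 0.71 higher after PAT in SPF mice, with 3 of 3 treated mice above all controls. Of all genes, 41% did not overlap in that comparison, in either direction. In GF mice Tlr5 was -0.27 different and not past the threshold (limma adjusted p = 0.693). There 3 of 3 treated mice lay below all controls, beside 12.1% of all genes without overlap. Counts of Tlr5 were 28 to 56 in a mouse. With each mouse left out in turn the difference between the effects ranged from 0.83 to 1.13 and the adjusted p from 0.0221 to 0.0799. The call was lost without any 1 of mice 2, 26, 27, 38, 39, 41 and 42. The value was 1.53 with median centring (adjusted p = 0.0393) and 1.73 with quantile normalization (0.0346). The call was lost with voom (0.92, adjusted p = 0.0556), with the B cell covariate (0.85, adjusted p = 0.0936) and with Benjamini-Yekutieli adjustment (adjusted p = 0.226).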

How the results depend on the processing

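Between the controls, the 3 receptor genes past the threshold became 0 with Tukey and Benjamini-Yekutieli adjustment and 5 with the B cell covariate, and were 2 to 3 with single mice left out. Over all genes 234 calls became 49 and 268, and 169 to 259 with mice left out. Between SPF PAT and SPF control, 3 became 0 with Tukey (Benjamini-Hochberg or Benjamini-Yekutieli), 1 with only the groups compared and 1 with median centring, and 0 to 3 with mice left out. Over all genes 146 calls became 55, 6, 76 and 106 in the same order, and 64 to 232 with mice left out. For the difference between PAT effects, 1 became 0 with Benjamini-Yekutieli, voom or the covariate and 2 with total count scaling, and 0 to 4 with mice left out. Over all genes 95 calls became 1, 91, 48 and 134 in the same order, and 35 to 217 with mice left out. The F-test's 3 became 0 with Benjamini-Yekutieli and 5 with the covariate, and 0 to 3 with mice left out. Over all genes its 184 calls became 66 and 254, and 84 to 217 with mice left out. The count stayed at 0 between GF PAT and GF control, SPF PAT and GF PAT, and SPF PAT and GF control under every setting run.

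Reversals concerned differences not past the threshold in either setting, and their causes were not tested. With median centring and quantile normalization, Tlr4 became -0.19 and -0.24 between the controls and 0.14 and 0.18 after PAT in SPF mice, and Tlr8 became -0.12 and -0.24, then 0.25 and 0.27. For the difference between PAT effects, Tlr8 became 0.48 with median centring and 0.60 with quantile normalization, Tlr2 became 0.21 with quantile normalization, and Tlr4 became -0.05 with total count scaling, -0.02 with voom and -0.25 with the B cell covariate. In GF mice Tlr1 became -0.15 with median centring, -0.08 with quantile normalization and -0.18 with the covariate, Tlr3 became 0.02 with the covariate, and Tlr8 became 0.09 with total count scaling, 0.02 with voom and 0.23 with the covariate. Cd14 became 0.08 between the controls with the covariate and, after PAT in SPF mice, 0.27 with median centring and 0.19 with quantile normalization. With mice left out, Tlr8 ranged from -0.30 to 0.14 after PAT in SPF mice (0.04 without mouse 21), from -0.18 to 0.11 in GF mice (0.04 without mouse 41) and from -0.27 to 0.17 for the difference between PAT effects, where Tlr4 ranged from -0.07 to 0.17 (-0.01 without mouse 26 and -0.04 without mouse 27). Tlr1 in GF mice ranged from -0.11 to 0.22 (-0.01 without mouse 39 and -0.10 without mouse 41), and Cd14 from -0.23 to 0.03 between the controls and from -0.24 to 0.07 after PAT in SPF mice (0.04 without mouse 21).

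Tlr1 and Tlr5 between the controls passed under every setting but Benjamini-Yekutieli, with ranges of 0.95 to 1.27 and -1.07 to -0.81 when mice were left out, but at 0.65 for Tlr1 and -1.36 for Tlr5 with median centring and 0.90 and -1.54 with quantile normalization. With Tukey and Benjamini-Yekutieli adjustment none of the pathway genes named passed after PAT in SPF mice (smallest adjusted p 0.0909, for Cxcl10), and between the controls 3 of the induced products, 2 of the kinases, 1 transcription factor lower and 1 higher, 1 inhibitor and 1 of the other receptors for microbial molecules passed. No paired analysis was possible because the labels give each mouse its own number and no replicate number that groups share; replicates were numbered in sample order. Low counts of Tlr2 and Tlr5 and 3 mice a group limit the precision.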
